A study of Drosophila melanogaster with 6 samples.

Results

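The nuclear genes for subunits of the mitochondrial respiratory chain were described in the brain of Drosophila melanogaster larvae at the 3rd instar, with RNAi against DMAP1. Members were the nuclear genes whose symbol starts with ND-, UQCR-, COX and a digit, or ATPsyn. The rule found 80 of 17490 gene rows, of which 40 belong to complex I, 9 to complex III, 16 to complex IV and 15 to complex V. Of these, 21 are named after another subunit gene with L, L1 or L2 added to its symbol and are called L-type, while the other 59 are not of L type. The symbol rule used no measured value, but it was chosen with earlier results of these data known.

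All 6 libraries had the same labelled genotype, DMAP1 RNAi, driven by elav-Gal4, which is active in neurons, so brain RNA mixes driver-expressing cells with cells that lack the driver. The column names of the count table divide them into DMAP1RNAi103734 and DMAP1RNAi63666, with 3 libraries each. The labels state neither what these stems stand for nor whether the libraries came from separate animals or pools. The p-values therefore measure only the spread between these libraries, which may be technical. Libraries are called by series and number. Columns named wild type matched no labelled sample and were not analysed here, so every difference given is between the series and none is an effect of the knockdown.

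The respiratory chain passes electrons from NADH through complex I, or from succinate through complex II, to ubiquinone. From there they go through complex III and cytochrome c to complex IV, which reduces oxygen. The proton gradient that complexes I, III and IV build drives complex V, the ATP synthase. Most subunits of these complexes are nuclear genes whose proteins are imported into mitochondria, while a few hydrophobic core subunits are made from the mitochondrial genome, and complex II has nuclear subunits only. Neurons depend on this chain for much of their ATP.

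Library totals ranged from 31518485 to 37236953 counts, so 1 count was worth 0.0269 to 0.0317 CPM, the unit that scales a count to its library total. Levels are given as TPM, which is scaled to gene length as well. DMAP1 itself stood at 18.6, 19.7 and 17.0 TPM in the DMAP1RNAi103734 libraries and at 10.8, 12.2 and 11.9 TPM in the DMAP1RNAi63666 libraries, a log2 difference of -0.62 (SE 0.12, edgeR adjusted p = 0.0453). That call was lost without any 1 library other than library 2 of the DMAP1RNAi63666 series, with adjusted p between 0.0774 and 0.168. The defining markers of the labelled tissue were present: 10 of 10 neuron and 8 of 8 glia markers passed the low-count filter, with elav at 152 TPM and repo at 52.9 TPM on average. The mitochondrial genome took 6.98, 6.88 and 7.10% of counts in the DMAP1RNAi103734 libraries and 10.91, 8.85 and 8.18% in the DMAP1RNAi63666 libraries.

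The 80 genes together made up 0.688, 0.773 and 0.731% of counts in the DMAP1RNAi103734 libraries and 0.616, 0.677 and 0.715% in the DMAP1RNAi63666 libraries. Averaged over the 6 libraries, 62 of them reached 1 TPM (77.5%) and 58 reached 5 TPM (72.5%). The genes fell into a broad upper band and a lower band with a wide gap between, and the lower band was made up of the L-type genes together with ND-B8. Among the 59 genes not of L type, 57 stood above 5 TPM. Of the 21 L-type genes, 1 did.

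**Figure D1:**
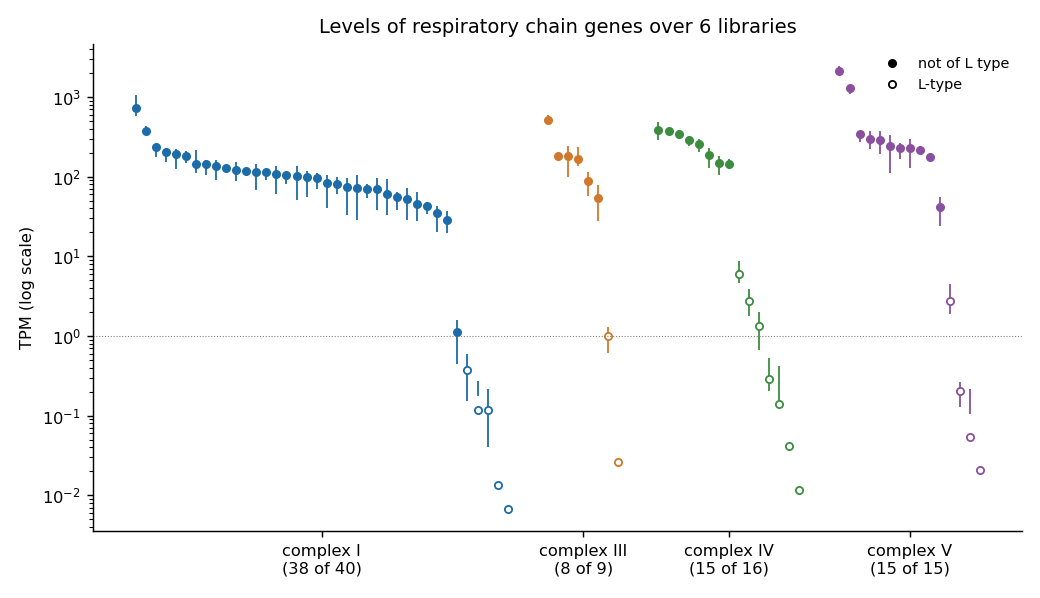
Mean TPM over 6 libraries (log axis) of the members with at least 1 count, ordered by level within each complex; vertical lines run from the lowest value above 0 to the highest library, and the dotted line marks 1 TPM. Filled circles, the genes not of L type, lie above 20 TPM except ND-B8 at 1.13, while open circles, the L-type genes, lie below 6 TPM.

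Complex V had the largest summed level, 5467 ± 354 TPM (SD, n = 6), followed by complex I with 4210 ± 267, complex IV with 2141 ± 222 and complex III with 1196 ± 71.8. The order was the same in each of the 6 libraries. These SDs pool the difference between the series with the spread within them.

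Complex V was led by ATPsynbeta, the catalytic subunit of the head that makes ATP. It reached 2115 ± 218 TPM (SD, n = 6), which is 38.7% of the summed level of the complex. ATPsynC, the subunit of the rotating membrane ring, followed with 1281 ± 119 TPM, and ATPsynCF6, a part of the peripheral stalk, with 342 ± 39.7 TPM. The catalytic subunit's partner in the head, the alpha subunit encoded by blw, lies outside the symbol rule and stood at 642 ± 118 TPM. ATPsyndelta, of the central stalk, was the lowest not of L type, at 41.6 ± 11.1 TPM. The remaining 7 such genes lay between 176 and 296 TPM by mean, so the subunits of 1 enzyme spanned a wide range of transcript levels.

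Complex I was led by ND-MLRQ with 720 ± 188 TPM (SD, n = 6), or 17.1% of its summed level. ND-MLRQ is the counterpart of a mammalian subunit that was first assigned to complex I and later to complex IV. ND-49, a core subunit near the ubiquinone site, followed with 373 ± 34.0 TPM, and ND-SGDH, an accessory subunit, with 233 ± 28.0. The lowest accessory subunits above 5 TPM were ND-B18 with 28.3 ± 6.16, ND-B17 with 34.8 ± 9.04 and ND-B14.5A with 42.3 ± 5.24 TPM. Their ranges over the libraries overlapped one another, but within each library their order was the same.

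In complex III, UQCR-14, a small accessory subunit, reached 522 ± 41.3 TPM (SD, n = 6), 43.6% of the summed level. UQCR-6.4 stood at 184 ± 8.15 TPM and UQCR-C1, one of the large core proteins, at 180 ± 53.4 TPM. These means were close, but UQCR-C1 was above UQCR-6.4 in every DMAP1RNAi103734 library and below it in every DMAP1RNAi63666 library. The other core protein, UQCR-C2, was the lowest not of L type at 54.2 ± 18.9 TPM, although both core proteins sit in the same part of the complex.

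Among the genes not of L type, levels were most even in complex IV. COX6B, a subunit facing the intermembrane space, stood at 384 ± 68.8 TPM (SD, n = 6), COX7A at 376 ± 20.6 and COX7B at 345 ± 35.7. The lowest not of L type were COX8 at 144 ± 13.5 TPM and COX4, the counterpart of the largest nuclear subunit in mammals, at 149 ± 29.4 TPM. The means of COX6B and COX7A were close, as were those of COX8 and COX4, but the order within these pairs differed by series. COX6B was above COX7A in every DMAP1RNAi103734 library and below it in every DMAP1RNAi63666 library, nearly level in library 2. COX4 was above COX8 in every DMAP1RNAi103734 library and, of the DMAP1RNAi63666 series, only in library 3.

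A pair of genes not of L type stood far below the others. ND-B8 had 9, 11 and 3 counts in the DMAP1RNAi103734 libraries and 7, 7 and 9 in the DMAP1RNAi63666 libraries, a mean of 1.13 TPM. ND-MNLL had 0 counts in all 6 libraries. Its row (FBgn0029971, X:7893053-7893798, minus strand, BDGP6) has the same coordinates and strand as that of CG45089 (FBgn0266490), which was also at 0 throughout. Reads assigned to several genes were not counted, per the file headers, so the 0 of this accessory subunit cannot be read as its level.

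Duplicates of respiratory chain genes with testis expression are well known in Drosophila. In these brains the L-type genes summed to 15.2 ± 2.85 TPM (SD, n = 6), against 12998 ± 885 TPM for the 59 others. COX4L was highest with 5.93 TPM, 3.98% of COX4, followed by ATPsynepsilonL with 2.77 TPM (0.757% of sun, which encodes the epsilon subunit), COX7AL with 2.73 TPM (0.726% of COX7A) and COX7CL with 1.34 TPM (0.469% of COX7C). UQCR-11L stood at 0.995 TPM, ND-51L1 at 0.373, COX5BL at 0.291, ATPsynbetaL at 0.201, COX6CL at 0.139, ND-B14.5AL at 0.119 and ND-51L2 at 0.116. Each of these 7 was under 1% of the gene it is named after (UQCR-11, ND-51, COX5B, ATPsynbeta, cype or ND-B14.5A). No more than 3 counts in all were found for ND-20L, ND-49L, UQCR-6.4L, COX6AL, COX7AL2, ATPsynCF6L and ATPsynGL, where the genes they are named after (ND-20, ND-49, UQCR-6.4, levy, COX7A, ATPsynCF6 and ATPsynG) stood at 123 to 376 TPM. ND-24L and UQCR-14L were at 0 counts, which allows up to 0.015 CPM (3 counts over the 6 libraries, counting error only). COX6AL2 was also at 0 counts, but 67.0% of its exon bases are shared with Ir75d on the same strand. Reads assigned to several genes were not counted, so no such limit is given for COX6AL2. Of 9 testis markers, dj and nht were at 0, while can and mia stood at 23.8 and 7.14 TPM. The list summed to 24.4 to 30.3 TPM in the DMAP1RNAi103734 libraries and 32.5 to 48.8 TPM in the DMAP1RNAi63666 libraries, and its part in the L-type levels was not tested.

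Between the series, 50 of 61 tested subunit genes were fitted lower in the DMAP1RNAi63666 libraries, and none passed the threshold. The summed level of all members overlapped, at 13083, 14168 and 13532 TPM against 11594, 12501 and 13202 TPM. Of the 80 members, 61 passed the low-count filter and were tested, 33 of complex I, 6 of complex III, 10 of complex IV and 12 of complex V. None had an edgeR adjusted p under 0.05, where 1.55% of all 10211 tested genes did, 0.676% lower and 0.872% higher in the DMAP1RNAi63666 series. At an unadjusted p under 0.05, 28 members were lower and 4 higher in the DMAP1RNAi63666 series, against 11.9% lower and 12.6% higher over all tested genes. Over all tested genes 49.9% were fitted below 0, and in complex III 3 of 6 members were. On the scaled log2 CPM the libraries of the series did not overlap for 28 members that were lower in the DMAP1RNAi63666 series, against 16.5% of all tested genes, and for 6 that were higher, against 17.0%. DESeq2 called 17 members, 14 lower and 3 higher, where it called 9.39% of all genes and 4.67% as lower, and limma-voom called 0.

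The median log2 difference over tested members was -0.33 in complex I, -0.23 in complex III, -0.16 in complex IV and -0.32 in complex V, where the median over all tested genes was 0.00. Library 1 of the DMAP1RNAi63666 series carried part of this. Without it the medians were -0.20, -0.16, -0.11 and -0.22, a shift of over 1.5 times in complex I. Without library 2 of the DMAP1RNAi103734 series the medians of complexes IV and V were -0.09 and -0.18, also a shift of over 1.5 times. The number of members at an unadjusted p under 0.05 and lower was 12 in place of 28 without library 2 of the DMAP1RNAi103734 series. The call count over all members was 5 in place of 0 without library 2 of the DMAP1RNAi63666 series, where 4.39% of all genes were called; these were UQCR-C1, ND-20, ND-B15, ND-18 and ND-B17, all lower.

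**Figure D2:**
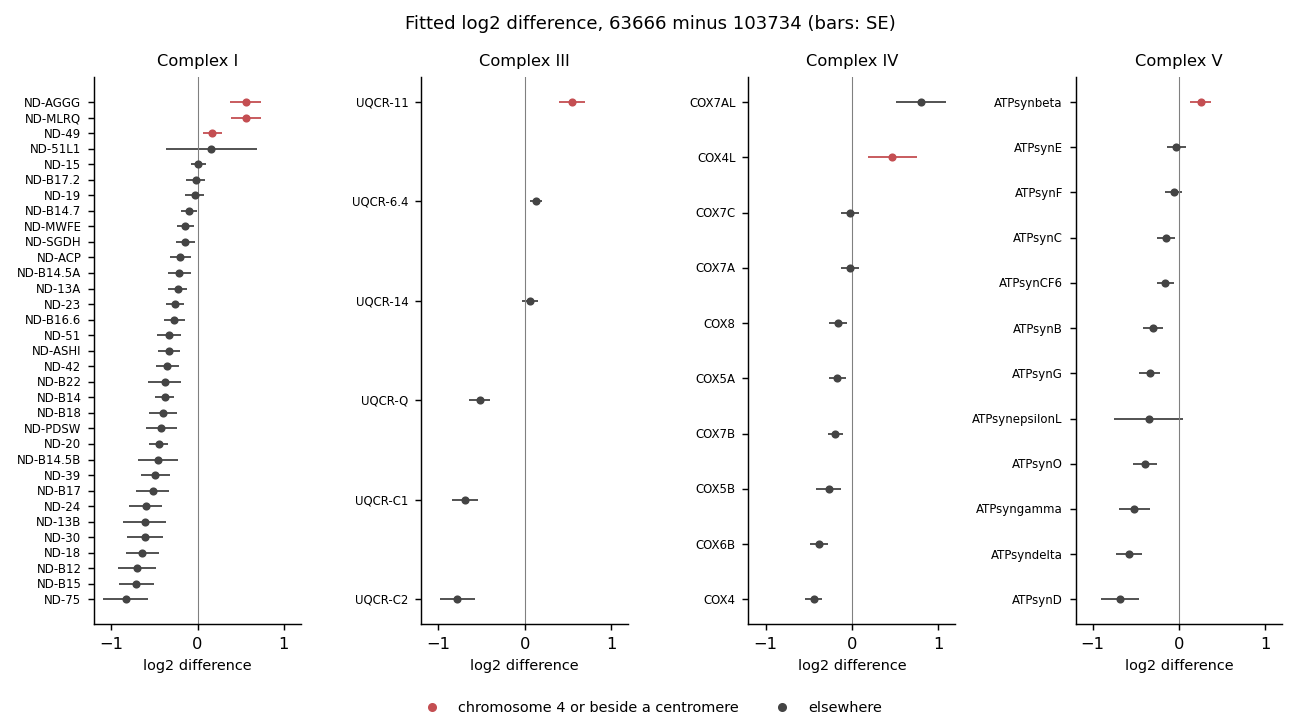
Fitted log2 difference (DMAP1RNAi63666 minus DMAP1RNAi103734, x axis) of the 61 tested members by complex, with bars of 1 SE. Most points lie left of 0 with bars that exclude it in complexes I and V, and the members on chromosome 4 or beside a centromere, in red, all lie right of 0.

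In complex I the 7 core subunits, which carry the flavin and iron-sulfur clusters or bind ubiquinone, had a median log2 difference of -0.45. Of these, 6 were lower at an unadjusted p under 0.05 with series that did not overlap, and the exception was ND-49. Over all tested genes 11.9% were lower at that level, and 16.5% were lower with series that did not overlap. ND-75 (FBgn0017566, X:8248651-8251687), the largest iron-sulfur subunit, stood at 86.0, 104 and 92.1 TPM in the DMAP1RNAi103734 libraries and at 28.8, 67.7 and 58.8 TPM in the DMAP1RNAi63666 libraries. The lowest library of the first series lay above the highest of the second, and library 1 of the DMAP1RNAi63666 series was far below its partners. The log2 difference was -0.83 (SE 0.26, edgeR adjusted p = 0.131) and -0.56 without that library. The other core subunits lower at that level were ND-24 at -0.60, ND-30 at -0.61, ND-20 at -0.45, ND-51, which binds the flavin, at -0.33, and ND-23 at -0.26.

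Accessory subunits surround this core and are needed for its assembly and stability. Of 27 such genes 25 were tested, with a median log2 difference of -0.33, and of -0.20 without library 1 of the DMAP1RNAi63666 series. At an unadjusted p under 0.05, 11 of the 25 were lower and 2 higher. The series did not overlap for 10 that were lower and 2 that were higher. Over all tested genes 11.9% were lower and 12.6% higher at that unadjusted p. Series that did not overlap were seen for 16.5% that were lower and 17.0% that were higher. ND-B15 (FBgn0033961, chromosome 2R) had the largest difference among them, with 46.6, 64.9 and 58.8 TPM in the DMAP1RNAi103734 libraries and 27.4, 42.2 and 31.4 TPM in the DMAP1RNAi63666 libraries. Its series did not overlap (log2 difference -0.71, SE 0.20, edgeR adjusted p = 0.114). Close to 0, ND-15 and ND-19 had log2 differences of 0.01 and -0.03, with SEs of 0.09 and 0.11, and the accessory subunits ranged from -0.71 to 0.56.

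A pair of complex I genes was higher in the DMAP1RNAi63666 series. ND-MLRQ (FBgn0052230, 3L:23339326-23345936) stood at 611, 595 and 577 TPM in the DMAP1RNAi103734 libraries and at 1074, 690 and 771 TPM in the DMAP1RNAi63666 libraries. ND-AGGG (FBgn0058002, 3L:24976254-24977118), an accessory subunit, stood at 129, 114 and 112 TPM and at 213, 133 and 158 TPM. Both had series that did not overlap and their highest level in library 1 of the DMAP1RNAi63666 series, the library in which most other members were lowest. Both had a log2 difference of 0.56, with SEs of 0.17 and 0.18 and edgeR adjusted p of 0.131 and 0.137. Without that library it was 0.30 for either gene. The summed level of complex I, of which ND-MLRQ is the largest item, was 4402 ± 164 TPM (SD, n = 3) in the DMAP1RNAi103734 libraries and 4017 ± 202 in the DMAP1RNAi63666 libraries, and the series did not overlap. Sums did not overlap in complex IV either, at 2308 ± 133 against 1974 ± 149 TPM, while those of complexes III (1234 ± 25.9 against 1157 ± 88.6) and V (5651 ± 226 against 5284 ± 401) overlapped. All these sums are scaled over all genes, the mitochondrial genome included, which took a larger share of counts in each DMAP1RNAi63666 library. A larger mitochondrial share lowers the TPM of nuclear genes, and whether the series stay apart over nuclear genes only was not tested.

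In complex III the core proteins had the most negative fitted differences. UQCR-C1 (FBgn0038271, 3R:14890231-14892387) stood at 205, 241 and 226 TPM in the DMAP1RNAi103734 libraries and at 99.9, 157 and 150 TPM in the DMAP1RNAi63666 libraries. UQCR-C2 (FBgn0250814, 3L:16584124-16586111) stood at 56.9, 78.4 and 71.7 TPM and at 27.4, 47.6 and 43.0 TPM. For both genes every library of the DMAP1RNAi63666 series lay below every library of the DMAP1RNAi103734 series, and library 1 was lowest within either series. The log2 difference was -0.69 (SE 0.15, edgeR adjusted p = 0.0783) for UQCR-C1 and -0.78 (SE 0.20, edgeR adjusted p = 0.0972) for UQCR-C2.

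The 4 small subunits had a median log2 difference of 0.10. UQCR-Q was on the side of the core proteins, with -0.52 (SE 0.12), while UQCR-14 had 0.06 (SE 0.09) and UQCR-6.4 had 0.13 (SE 0.07). UQCR-11 (FBgn0260008, 3L:25120709-25126171), the counterpart of the hinge protein that helps cytochrome c1 meet cytochrome c, stood at 138, 136 and 138 TPM in the DMAP1RNAi103734 libraries and at 236, 163 and 182 TPM in the DMAP1RNAi63666 libraries. The DMAP1RNAi103734 libraries were nearly level, and each DMAP1RNAi63666 library was above them. The log2 difference was 0.55 (SE 0.15, edgeR adjusted p = 0.112), and 0.34 without library 1 of the DMAP1RNAi63666 series.

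In complex IV all 8 genes not of L type were fitted below 0, from -0.44 to -0.02. COX4 (FBgn0032833, 2L:19958713-19960065) stood at 162, 178 and 180 TPM in the DMAP1RNAi103734 libraries and at 106, 132 and 136 TPM in the DMAP1RNAi63666 libraries. COX6B (FBgn0031066, X:19740537-19744335) stood at 411, 479 and 426 TPM and at 286, 349 and 350 TPM. The series did not overlap for either gene, with log2 differences of -0.44 (SE 0.10, edgeR adjusted p = 0.087) and -0.38 (SE 0.10, edgeR adjusted p = 0.11). COX7A and COX7C, which are small membrane subunits, each had -0.02 (SE 0.10).

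The genes above 0 in complex IV were both L-type and low. COX7AL (FBgn0037579, 3R:8343669-8344310) had 21, 16 and 16 counts in the DMAP1RNAi103734 libraries and 23, 30 and 36 in the DMAP1RNAi63666 libraries, and COX4L (FBgn0033020, chromosome 2R) had 61, 51 and 52 against 46, 96 and 79. The series overlapped for COX4L and not for COX7AL on the scaled log2 CPM. The log2 differences were 0.80 (SE 0.29, edgeR adjusted p = 0.161) for COX7AL and 0.47 (SE 0.28, edgeR adjusted p = 0.317) for COX4L.

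Most tested members of complex V were fitted below 0. The central stalk, which turns inside the head, had log2 differences of -0.58 (SE 0.15, edgeR adjusted p = 0.108) for ATPsyndelta and -0.52 (SE 0.18) for ATPsyngamma, the latter -0.33 without library 1 of the DMAP1RNAi63666 series. The third gene of this stalk, sun, lies outside the symbol rule and had -0.24 (SE 0.09). ATPsyndelta (FBgn0028342, X:10212970-10217393) stood at 46.5, 54.9 and 49.9 TPM in the DMAP1RNAi103734 libraries and at 24.3, 38.5 and 35.6 TPM in the DMAP1RNAi63666 libraries. The peripheral stalk, which holds the head still, had a median of -0.34 over 4 genes, from ATPsynD at -0.68 to ATPsynCF6 at -0.16. The 4 membrane subunits had a median of -0.10, from ATPsynG at -0.34 (SE 0.12), whose series did not overlap, to ATPsynE at -0.03. The ranges of the stalks and the membrane part overlapped, and no test compared them.

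ATPsynD (FBgn0016120, 3R:19095000-19096271) stood at 264, 334 and 299 TPM in the DMAP1RNAi103734 libraries and at 112, 219 and 217 TPM in the DMAP1RNAi63666 libraries. The series did not overlap, and library 1 of the DMAP1RNAi63666 series lay far below its partners. The log2 difference was -0.68 (SE 0.22, edgeR adjusted p = 0.138), and -0.45 without that library.

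The most abundant member was on the other side. ATPsynbeta (FBgn0010217, 4:1031484-1034917) stood at 2004, 1947 and 1938 TPM in the DMAP1RNAi103734 libraries and at 2336, 2019 and 2443 TPM in the DMAP1RNAi63666 libraries. Its series did not overlap (log2 difference 0.25, SE 0.12, edgeR adjusted p = 0.229). The alpha subunit gene blw, whose protein alternates with the beta subunit in the head, stood at 696, 778 and 742 TPM and at 461, 581 and 596 TPM. That gave blw a log2 difference of -0.40 (SE 0.11, edgeR adjusted p = 0.119), so transcripts for the partner subunits of the head differed in opposite directions by fitted value.

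**Figure D3:**
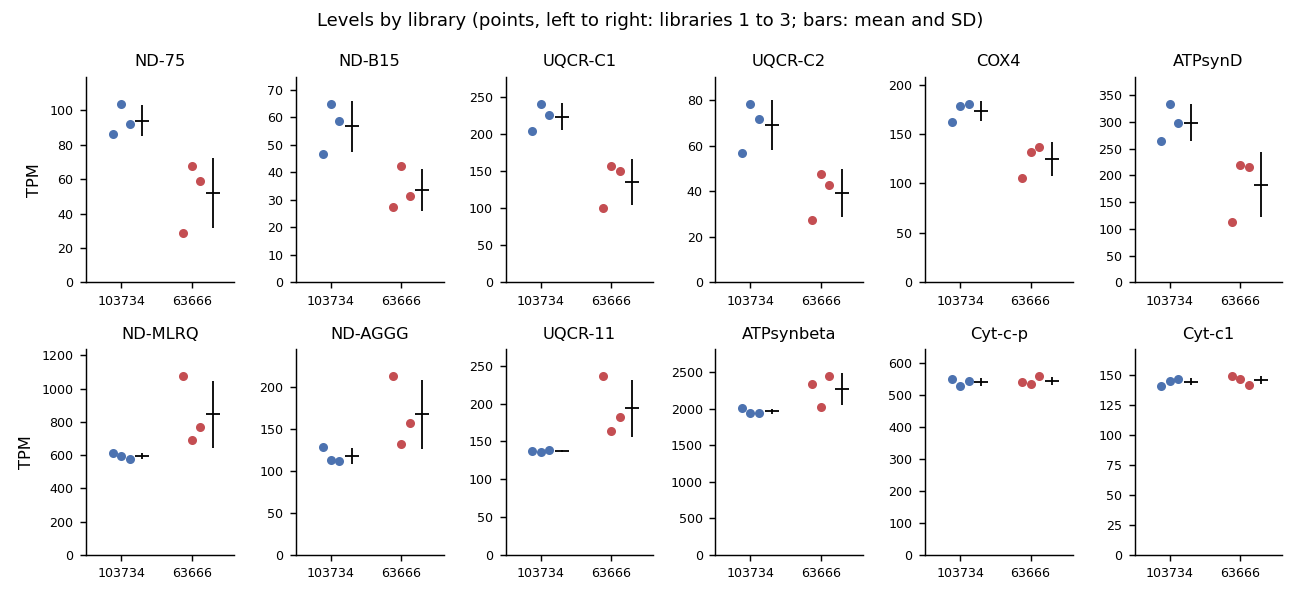
TPM in each library (y axis, from 0) of 10 members and of the cytochrome genes Cyt-c-p and Cyt-c1, with the DMAP1RNAi103734 series in blue and the DMAP1RNAi63666 series in red, libraries 1 to 3 from left to right, and the mean and SD (n = 3) beside them. ND-75, ND-B15, UQCR-C1, UQCR-C2, COX4 and ATPsynD are lower in every DMAP1RNAi63666 library, and ND-MLRQ, ND-AGGG, UQCR-11 and ATPsynbeta are higher.

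Of the 11 tested members fitted above 0, 6 shared a kind of position that the symbol rule did not use. In Drosophila the small chromosome 4 and the stretches beside the centromeres are rich in heterochromatin. Windows were set by hand, after the members' values were seen, as chromosome 4, 3L from 23 Mb, 2L from 22 Mb, 2R up to 6 Mb, 3R up to 4 Mb and X from 22 Mb (BDGP6). All 6 tested members inside them were fitted above 0, namely ATPsynbeta and ND-49 (4:568296-571554) on chromosome 4, ND-MLRQ, ND-AGGG and UQCR-11 on 3L and COX4L on 2R, whereas 5 of 55 outside were.

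Genes of all kinds in the same windows differed in the same way. Over the 303 tested genes in the windows the median log2 difference was 0.34 and 83.8% were above 0, against a median of -0.01 and 49.0% for the 9891 nuclear genes outside. By window the median was 0.33 on chromosome 4 (98 genes), 0.42 on 3L (45), 0.35 on 2R (85), 0.32 on 2L (35), 0.49 on 3R (8) and 0.06 on X (32). With each library left out in turn the median over all windows ran from 0.19, without library 1 of the DMAP1RNAi63666 series, to 0.42. Of these 303 genes, 6 were called higher and 2 lower. Library 1 of the DMAP1RNAi63666 series lay 0.41 above the 6-library mean by the median gene of the windows, and libraries 2 and 3 of that series lay 0.01 and 0.05 above. Since the windows were chosen from these values, no test is given.

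The members moved together among libraries within each series as well. On the scaled log2 CPM, library 1 was lowest of the DMAP1RNAi103734 series for 49 of 61 members (80.3%) and library 2 highest for 47 (77.0%), against 33.5% and 42.7% of all tested genes. Within the DMAP1RNAi63666 series library 1 was lowest for 47 members (77.0%) and library 2 highest for 40 (65.6%), against 40.7% and 32.0%. The median SD within a series, on the log2 scale, was 0.11 over members in the DMAP1RNAi103734 libraries and 0.22 in the DMAP1RNAi63666 libraries, against 0.12 and 0.19 over all tested genes. ND-75, ND-13B and ND-B14.5B had the widest spread in the DMAP1RNAi63666 series of the members not of L type, with SDs of 0.61, 0.59 and 0.56.

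**Figure D4:**
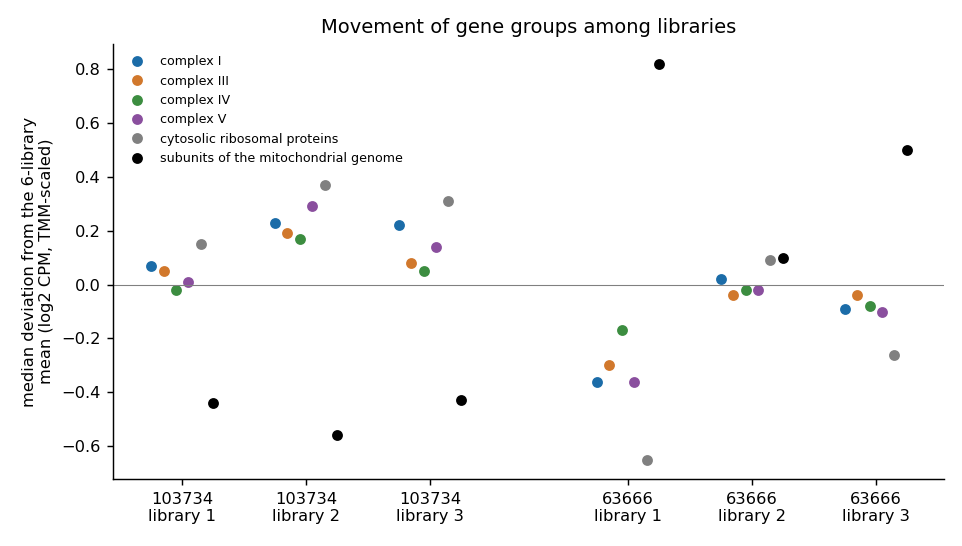
Median deviation from the 6-library mean (log2 CPM after TMM scaling, y axis) in each library (x axis) for the tested members of each complex, cytosolic ribosomal protein genes and subunits of the mitochondrial genome. Points of the nuclear complexes are lowest in library 1 of the DMAP1RNAi63666 series, between -0.36 and -0.17, while the mitochondrial genome is highest there at 0.82.

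Cytosolic ribosomal protein genes went the same way through the libraries. Library 1 was lowest of the DMAP1RNAi103734 series for 72 of 86 and library 2 highest for 68, and within the DMAP1RNAi63666 series library 1 was lowest for 67 and library 2 highest for 72. Their median deviations in the 3 libraries of the DMAP1RNAi63666 series were -0.65, 0.09 and -0.26, where complex I had -0.36, 0.02 and -0.09. Between the series 73 of 86 were fitted below 0, with a median log2 difference of -0.52, and of -0.38 without library 1 of the DMAP1RNAi63666 series. By edgeR 0 were called and 58 were lower at an unadjusted p under 0.05, while DESeq2 called 44 lower and 1 higher. The ribosomal protein genes of mitochondria had a median of -0.09, and 0.02 without library 1 of the DMAP1RNAi63666 series.

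Markers of the cells that make up the brain also differed by fitted value. All 10 neuron markers were fitted above 0, with a median log2 difference of 0.27 and 0 called. At an unadjusted p under 0.05, 2 of them were higher, where 12.6% of all tested genes were. Without library 1 of the DMAP1RNAi63666 series the median of the neuron markers was 0.11. Their summed level was 1962 to 2634 TPM in the DMAP1RNAi103734 libraries and 2499 to 3364 in the DMAP1RNAi63666 libraries. Of 8 glia markers 7 were above 0, with a median of 0.22 (0.17 without that library). By edgeR 0 were called and 3 were higher at an unadjusted p under 0.05, and DESeq2 called 2. The glia markers summed to 4628 to 5096 TPM against 5244 to 6215. The 6 neuroblast markers had a median of -0.16 and sums of 380 to 393 TPM against 354 to 380, and the 4 disc markers 0.08 (-0.02 without that library) and sums of 58.5 to 66.9 TPM against 62.8 to 70.3. In none of these lists was a marker at 0. The part of cell composition in the members' differences was not tested, and in whole brains fewer cells of a type and less RNA per cell cannot be told apart.

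Other tissues were present at levels that varied by library. The 10 muscle markers summed to 272 to 457 TPM in the DMAP1RNAi103734 libraries and to 177 to 551 TPM in the DMAP1RNAi63666 libraries, lowest in its library 1. The 7 fat body markers summed to 221 to 725 TPM and to 233 to 386 TPM, highest in library 2 of the DMAP1RNAi103734 series, the library in which most members were highest within it. The 6 hemocyte markers summed to 210 to 244 TPM and to 149 to 191 TPM. No muscle, fat body or hemocyte marker was at 0 over all libraries. None of them passed the threshold, while 0 muscle, 3 fat body and 3 hemocyte markers had an unadjusted p under 0.05, and DESeq2 called 1, of the hemocytes. The part of these tissues in the result was not tested.

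Chain genes whose names fall outside the rule had a median log2 difference of -0.39 over 10 tested, with none called by edgeR, 6 lower at an unadjusted p under 0.05 and 5 called by DESeq2. The Rieske iron-sulfur protein gene RFeSP of complex III had -0.69 (SE 0.19), ox, a small subunit of the same complex, -0.57 (SE 0.13), levy and cype of complex IV -0.55 (SE 0.14) and -0.46 (SE 0.13), and sun -0.24 (SE 0.09). The edgeR adjusted p of these 5 ran from 0.0783 to 0.174. The electron carriers around them stayed close to 0. Cyt-c-p, the main cytochrome c gene, stood at 550, 527 and 545 TPM in the DMAP1RNAi103734 libraries and at 540, 535 and 559 TPM in the DMAP1RNAi63666 libraries, a log2 difference of 0.05 (SE 0.07, edgeR adjusted p = 0.687). Cyt-c1 had 0.06 (SE 0.08, edgeR adjusted p = 0.685). Cyt-c-d and Cyt-c1L stood at 2.70 and 1.78 TPM, with 0.08 (SE 0.39) and -0.39 (SE 0.30).

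Complex II, the succinate dehydrogenase, was below 0 in 4 of 4 tested genes, with none called by edgeR, 2 at an unadjusted p under 0.05 and 1 called by DESeq2. SdhB, its iron-sulfur subunit, stood at 81.4, 96.2 and 89.5 TPM in the DMAP1RNAi103734 libraries and at 52.6, 74.1 and 60.7 TPM in the DMAP1RNAi63666 libraries (log2 difference -0.47, SE 0.13, edgeR adjusted p = 0.116). SdhA, SdhC and SdhD had -0.20, -0.20 and -0.17, with SEs of 0.08, 0.12 and 0.09. SdhAL and SdhBL had too few counts to be tested.

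Subunits made from the mitochondrial genome stood on the opposite side in the same libraries. All 13 (mt:CoI, mt:CoII, mt:CoIII, mt:Cyt-b, mt:ATPase6, mt:ATPase8, mt:ND1, mt:ND2, mt:ND3, mt:ND4L, mt:ND4, mt:ND5 and mt:ND6) were fitted above 0, from 0.49 for mt:CoIII to 1.36 for mt:ND6, and 6 were called. With libraries left out, 9 were called when it was library 2 of the DMAP1RNAi63666 series, 1 when it was library 3 of that series, and 0 when it was any library of the DMAP1RNAi103734 series. The summed TPM of the 7 mitochondrial over that of the 40 nuclear subunit genes of complex I was 0.845 ± 0.0857 (SD, n = 3) in the DMAP1RNAi103734 libraries and 1.89 ± 0.495 in the DMAP1RNAi63666 libraries. For complex III the ratio was 4.13 ± 0.316 against 7.71 ± 1.87, for complex IV 16.7 ± 1.53 against 28.2 ± 7.85 and for complex V 0.555 ± 0.0671 against 1.11 ± 0.22. The series overlapped in none of the 4 complexes, and library 1 of the DMAP1RNAi63666 series had the highest ratio in each. The libraries were made from polyadenylated RNA, so these ratios are levels within such libraries and not a stoichiometry.

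**Figure D5:**
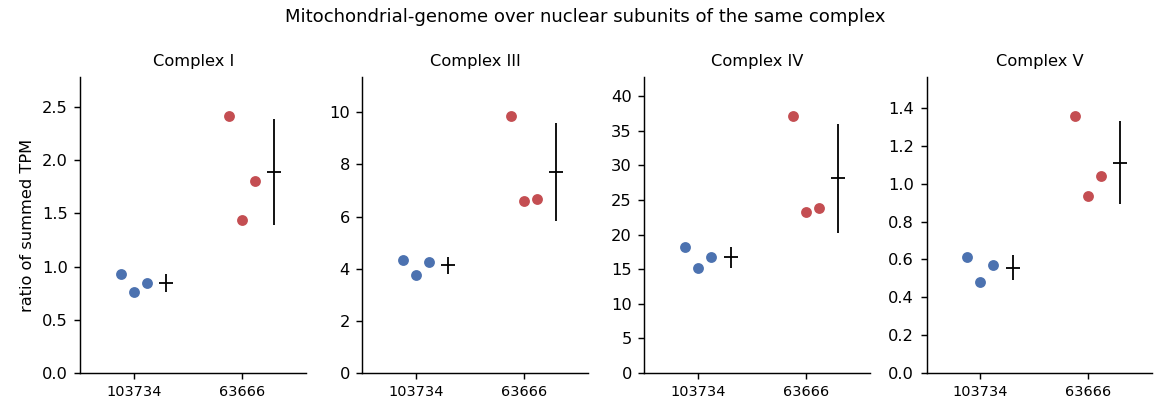
Summed TPM of subunit genes of the mitochondrial genome over that of the nuclear members of the same complex (y axis, from 0) in each library, with mean and SD (n = 3) beside the points. The 3 red points of the DMAP1RNAi63666 series lie above the 3 blue points of the DMAP1RNAi103734 series in complexes I, III, IV and V.

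Genes that supply or regulate the chain differed by list, some near 0 by median and others not. The 7 assembly factors, among them the copper chaperone Scox (log2 difference 0.07, SE 0.09), had a median of -0.03, and the 11 genes of the tricarboxylic acid cycle 0.01, with mAcon1, an aconitase, at 0.03 (SE 0.10). None of either list was called, and at an unadjusted p under 0.05 there were 0 and 3. The 12 glycolysis genes, of which Gapdh2 was the most abundant at 3246 TPM, had a median of -0.20. They ran from -0.66 to 0.35, with 9 fitted below 0 and none called. At an unadjusted p under 0.05, 3 of them were lower and 1 higher, where 11.9% and 12.6% of all tested genes were. Of 14 regulators of mitochondrial genes, mitochondrial DNA and stress none was called, and 2 were lower and 2 higher at that unadjusted p. Their median was -0.07, with a range from -0.57 to 0.32, and crc, the counterpart of mammalian ATF4, had 0.00 (SE 0.10). Import and chaperone genes had a median of 0.15 over 13 tested with none called, and 4 were higher and 2 lower at that unadjusted p. The import channel gene Tim17b had 0.50 (SE 0.16, edgeR adjusted p = 0.131). Tim17b lies at 3R:3734855-3745306, in the 3R window given above, whose 8 tested genes had a median of 0.49. The 5 tested antioxidant genes were all fitted below 0, from -0.43 to -0.03, with a median of -0.27 (-0.16 without library 1 of the DMAP1RNAi63666 series). None was called and 2 were lower at that unadjusted p, and Trx2, a thioredoxin, had -0.07 (SE 0.08). DESeq2 called 0 assembly, 1 tricarboxylic acid cycle, 3 glycolysis, 1 regulator, 2 import and 0 antioxidant genes.

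Of 7 tested genes for carriers and channels of the mitochondrial membranes, 1 rose in the DMAP1RNAi63666 series. Bmcp, an uncoupling-type carrier, stood at 23.4, 20.3 and 22.99 TPM in the DMAP1RNAi103734 libraries and at 34.1, 36.8 and 35.3 TPM in the DMAP1RNAi63666 libraries. Its log2 difference was 0.72 (SE 0.09, edgeR adjusted p = 0.00794). The series were well apart, and library 1 of the DMAP1RNAi63666 series did not stand out. The call held without each library (adjusted p from 0.0196 to 0.0493) except library 3 of the DMAP1RNAi103734 series, where the adjusted p was 0.0503. The list was led in level by sesB, the ADP/ATP exchanger, at 1634 TPM, with a log2 difference of 0.13 (SE 0.11).

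The members were short, with a median gene length of 842 bases over the 61 tested against 2096 bases over all 10194 nuclear genes tested. The part of length in the members' differences was not tested. Among the 3729 other nuclear genes no longer than 1632 bases, the length that 90% of the members do not exceed, the median log2 difference was -0.01 and 51.1% were below 0, where 82.0% of members were. Over the members Spearman's rho between length and difference was -0.24 over 61 genes, which share the 6 libraries and their depth.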

How the data were processed

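Brain RNA libraries were made from polyadenylated RNA with Qiagen RNeasy and Illumina TruSeq kits, per the labels' protocols. Raw counts per gene were deposited, made by the authors with featureCounts 1.6.5 on BDGP6 release 84, per the file headers, with strand option 2, paired reads and no multi-mapping reads. DESeq2 is also named, without a role, in the submitters' processing notes. Of the deposited table, 6 columns were used, and 3 columns of per-sample values that matched no labelled sample were not used. The 17490 gene rows were named by identifier in Ensembl release 115 (17216) or by exon overlap of at least 0.8 (215), and 59 kept their identifier. Several L-type genes are close copies of other genes, so their counts are uncertain.

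CPM and TPM were computed from the deposited counts and gene lengths. Differences between the column-name series (DMAP1RNAi63666 minus DMAP1RNAi103734) were tested with edgeR 4.0.16 (quasi-likelihood, TMM scaling, filterByExpr with minimum count 10, two-sided) over 10211 genes with Benjamini-Hochberg adjustment at 0.05, after a test on simulated data. DESeq2 1.42.0, limma 3.58.1 (voom), other scalings and filters, and each library left out were alternatives. No 2 libraries agreed within sampling noise (lowest chi-square per degree of freedom 22.91). The labels do not say whether column numbers pair the series, and the main fit treated the libraries as unpaired. Intervals and floors cover counting error only.

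The members, gene lists and tests were chosen with earlier results of these data known. The genes named are those past the threshold, the 3 highest and 3 lowest by TPM and the 2 largest differences each way in each complex, all L-type genes with their partners, the other chain subunits, and the called or else the most abundant gene of each other list. Members named outside that rule were chosen after their values were seen, as was the comparison with gene length. Of the list symbols, ccdc56 and vas were not matched. A planned search of promoters for motifs needs sequences that were not used here.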

Additional observations from a re-analysis of the deposited data

Results flagged for a closer look

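In each of 62 values (the levels of the named members and chain genes with a mean of at least 10 counts, and the summed level of each complex) the highest and the lowest of the 6 libraries were compared with the rest, and 2 stood apart by Dixon's criterion at 95%, where chance gives about 1 in 20. The level of ND-SGDH, an accessory subunit of complex I, was 177 TPM in library 1 of the DMAP1RNAi63666 series, while the other 5 libraries lay between 234 and 255 TPM. The level of SdhC, a membrane anchor of complex II, was 92.7 TPM in the same library, while the others lay between 125 and 140 TPM.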

How the results depend on the processing

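The count of members called, 0 of 61, was 1 with no low-count filter (UQCR-C1), 17 with DESeq2 and 0 to 5 with each library left out in turn. The labels do not say whether the column numbers pair the libraries. Correlations of same-numbered libraries (0.221, -0.201 and -0.244) do not settle it, since differently numbered ones were not compared. With the number as a replicate block 11 members were called, all lower, where 2.72% of all genes were. Medians by complex kept their sign in every alternative run; that of complex IV was -0.03 with no filter. Over the libraries left out they ran from -0.45 to -0.20 for complex I, -0.29 to -0.16 for complex III, -0.19 to -0.09 for complex IV and -0.40 to -0.18 for complex V. Summed levels of complexes I, III, IV and V were 1778, 479, 670.3 and 4072 as CPM and 5000, 1420, 2539 and 6495 as TPM over nuclear genes only. The 15 members with the largest differences each way in each complex kept their direction in 210 alternatives, and 20 of these passed the threshold. They were chosen for their differences, so this says little of other members. ND-15, ND-19, ND-B17.2, UQCR-14, COX7A, COX7C, ATPsynE and ATPsynF, all close to 0, changed sign with a library left out. So did the L-type genes ND-51L1 and ATPsynepsilonL, which stood at 0.16 and -0.35 in the main fit. Scaling by library totals only moved the median of all genes to -0.07. DMAP1 did not pass with limma-voom (adjusted p = 0.0513), the block (0.0507), library totals only (0.0549) or the minimum count in all 6 libraries (0.0647). The counts at an unadjusted p and the leave-one-out values of the windows were chosen after seeing the data. The planned share of promoters with a motif was not run. The cause of these shifts was not tested. With 3 libraries per series, no permutation test of a single value between them can pass 0.05, and low counts limit the L-type genes.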
